A study of Mus musculus with 9 samples.

Results

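A set of 9 adhesion genes, chosen by name, was followed across mouse morulae: E-cadherin (Cdh1), its catenins Ctnna1, Ctnnb1 and Ctnnd1, and the tight junction genes Tjp1, Ocln, Cldn4, Cldn6 and F11r. They are 9 of the 53819 gene rows counted in each library, and all 9 passed the filter on low counts that left 12488 genes for testing. Total RNA came from C57BL/6J embryos made by in vitro fertilization and collected at the morula stage. The sires were Control males, males of the 6% EtOH group or males of the 10% EtOH group, with 3 libraries for each. The labels do not tell how the ethanol was given, for how long or at what age, nor the number of embryos and sires pooled in each library. P-values below thus measure only the spread between samples, and some of that may be technical.

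E-cadherin joins neighbouring blastomeres through its extracellular domains and is tied to the actin cortex by beta-catenin and alpha-catenin, while p120-catenin steadies it at the membrane. At compaction this adhesion flattens the blastomeres against each other. Claudins, occludin and junctional adhesion molecules then assemble, with the scaffold protein ZO-1, into the tight junctions that seal the outer epithelium before the blastocyst cavity forms.

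Library totals ran from 6263465 to 27619281 counts. The count column carried a long header that names the aligner in 4 files (Control 2, 6% EtOH 1, 10% EtOH 1 and 10% EtOH 2) and a short header in 5. The long-header libraries were also the deeper ones, with at least 19574710 counts against at most 11026334 in short-header libraries, so header form and depth cannot be told apart. All 10 cleavage and morula markers were detected, though not in every library, with a summed level of 2532 to 4667 CPM. Dppa3 was the highest of them, with a mean of 1855 CPM. Zscan4c was at 0 in Control 2, Control 3, 10% EtOH 1 and 10% EtOH 2. The oocyte list summed to 6.55 to 46.2 CPM and the blood list to at most 2.66 CPM. Of 12 cumulus and granulosa markers, 5 were at 0 in all 9 libraries (Fshr, Cyp11a1, Has2, Ptx3 and Inhba), and the list summed to at most 5.89 CPM. Of 6 sperm markers, 4 were at 0. The oviduct and fibroblast list summed to 7.97 to 57.3 CPM, mostly from Pdgfra with 6.31 to 52.7 CPM. No other gene of that list was above 3.31 CPM (Muc1 in Control 2), and Col1a2 was at 0 in all libraries. Whether other cells had a part in the results below was not tested.

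Per kilobase of exon, the median level over the 9 libraries was highest for Cldn4 at 129 CPM per kb, followed by Cdh1 at 70.1 and F11r at 35.2. Ctnnb1, Ctnna1 and Tjp1 came next with 33.8, 33.7 and 22.4 CPM per kb. Ocln with 14.9, Cldn6 with 8.56 and Ctnnd1 with 0.898 CPM per kb closed the order. Neighbours in this order were not well separated. Cldn4 lay above Cdh1 in 5 of 9 libraries, which were all 4 long-header libraries and 1 short-header library. Tjp1 lay above Ocln in 6 of 9, made up of 1 long-header and all 5 short-header libraries. Cldn6 lay above Ctnnd1 in 8 of 9 libraries, but this last place is uncertain, since reads of Ctnnd1 may have been left out where another gene model shares its exons.

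Cdh1 encodes E-cadherin, the adhesion molecule on which compaction depends. It was counted at 321, 397 and 309.8 CPM, counts scaled to library size with TMM factors, in Control 1 to 3. The 6% EtOH libraries held 409.5, 265 and 282 CPM, and the 10% EtOH libraries 412, 455 and 238. The 3 sire groups overlapped fully, and the highest library was only 1.91-fold above the lowest. By edgeR's quasi-likelihood test the log2 fold change was -0.10 ± 0.42 SE for 6% EtOH against Control (95% interval -1.01 to 0.80, adjusted p = 0.973). For 10% EtOH against Control it was 0.10 ± 0.42 SE (-0.80 to 1.01, edgeR adjusted p = 0.9999). Both intervals reach well to either side of 0, so neither a modest difference nor its absence was shown. In RNA from whole embryos, fewer cells of a type and less RNA per cell cannot be told apart.

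Ctnna1, alpha-catenin, links the cadherin complex to actin filaments and had the smallest spread of the 9 within sire groups. Its levels were 179, 257 and 237 CPM in controls, 154, 285 and 184 with 6% EtOH and 202, 225 and 217 with 10% EtOH. The groups overlapped, and the log2 fold changes were -0.11 ± 0.42 SE and -0.067 ± 0.42 SE against Control. The SD of log2 CPM within groups was 0.31, smaller than in all but 1.35% of tested genes. Cdh1 followed with 0.37 at percentile 2.79, against a median of 1.18 over all tested genes.

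Ctnnb1, beta-catenin, binds the cadherin tail and also acts in Wnt signalling. It was measured at 165, 221 and 86.3 CPM in controls, 244, 78.3 and 176 with 6% EtOH and 196, 265 and 149 with 10% EtOH. The lowest library of each group was a short-header one, and the groups overlapped. The log2 fold changes were 0.077 ± 0.54 SE for 6% and 0.37 ± 0.54 SE for 10% EtOH. Ulk4 on the opposite strand covers 14.6% of the Ctnnb1 exons in the annotation used for lengths, and whether the counting used strand is not stated.

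Ctnnd1, p120-catenin, which keeps E-cadherin from being taken up from the membrane, was the least abundant member. It had 12.1, 6.58 and 3.96 CPM in controls, 9.86, 3.25 and 5.73 with 6% EtOH and 8.31, 5.48 and 7.30 with 10% EtOH, again with overlap. The log2 fold changes were -0.26 ± 0.94 SE and -0.10 ± 0.93 SE. A gene model on the same strand, Gm28635, holds 61.2% of the Ctnnd1 exon length and was at 0 counts in all 9 libraries, so reads in the shared exons may have been left out and the level of Ctnnd1 is uncertain.

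**Figure D1:**
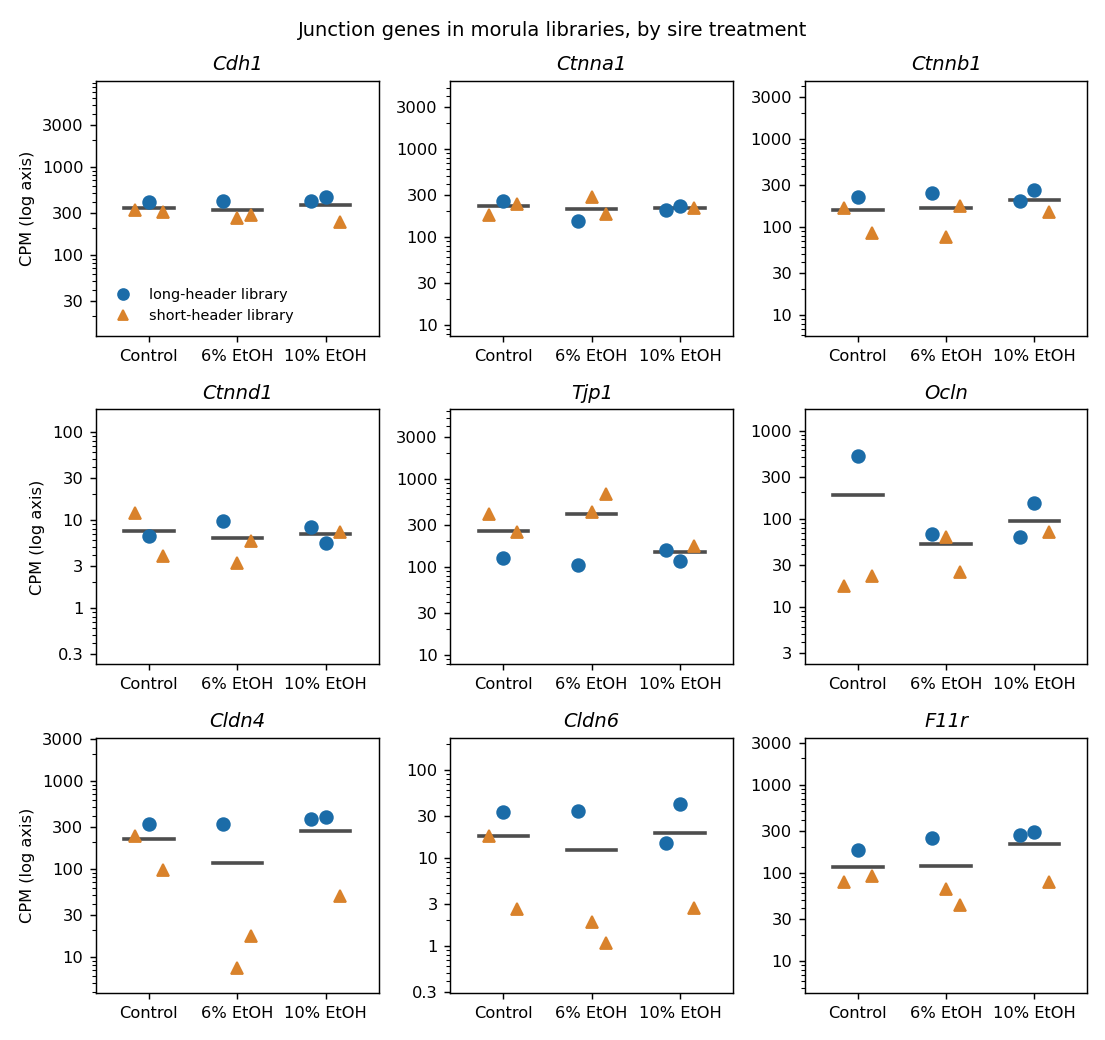
Level of each of the 9 junction genes in every library, in CPM on a log axis that spans the same fold range in each panel, with libraries placed by sire group. Circles are the 4 long-header and triangles the 5 short-header libraries, and the bar is the mean of the 3 libraries. Cdh1 and Ctnna1 vary by 1.91-fold and 1.85-fold over all libraries, while Cldn4 and Cldn6 vary by 52.2-fold and 37.4-fold.

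The tight junction genes varied more between libraries, and their sequences just upstream are shown for the 5 whose levels are described next. RefSeq promoter windows of 300 bases, 250 before to 50 after the start on build GRCm38.p6, were matched for 7 of the 9 genes, all but Cdh1 and Ctnna1. Capitals mark the E2-box CAGGTG or its reverse complement CACCTG, the letters best known as the binding sequence of Snail and Zeb repressors of epithelial genes.
Cldn4 (chr5:134946885-134947184, minus strand): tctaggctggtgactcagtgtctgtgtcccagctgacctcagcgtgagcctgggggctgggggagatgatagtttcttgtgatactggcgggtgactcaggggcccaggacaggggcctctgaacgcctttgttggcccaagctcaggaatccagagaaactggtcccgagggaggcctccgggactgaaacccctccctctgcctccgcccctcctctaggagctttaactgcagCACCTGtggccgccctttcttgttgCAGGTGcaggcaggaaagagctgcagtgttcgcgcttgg
Cldn6 (chr17:23679115-23679414, plus strand): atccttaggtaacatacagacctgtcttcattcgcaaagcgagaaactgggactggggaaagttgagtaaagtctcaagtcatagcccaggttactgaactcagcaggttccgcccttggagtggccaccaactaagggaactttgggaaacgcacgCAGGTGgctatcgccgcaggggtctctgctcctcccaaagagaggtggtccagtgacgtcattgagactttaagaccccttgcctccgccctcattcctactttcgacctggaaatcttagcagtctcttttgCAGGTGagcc
F11r (chr1:171437311-171437610, plus strand): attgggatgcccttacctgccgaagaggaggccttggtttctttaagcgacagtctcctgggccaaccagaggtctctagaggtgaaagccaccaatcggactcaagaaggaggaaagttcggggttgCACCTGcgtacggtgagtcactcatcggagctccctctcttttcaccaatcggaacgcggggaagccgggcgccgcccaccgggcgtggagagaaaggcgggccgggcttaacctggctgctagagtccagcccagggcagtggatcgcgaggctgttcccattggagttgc
Ocln (chr13:100552449-100552748, minus strand): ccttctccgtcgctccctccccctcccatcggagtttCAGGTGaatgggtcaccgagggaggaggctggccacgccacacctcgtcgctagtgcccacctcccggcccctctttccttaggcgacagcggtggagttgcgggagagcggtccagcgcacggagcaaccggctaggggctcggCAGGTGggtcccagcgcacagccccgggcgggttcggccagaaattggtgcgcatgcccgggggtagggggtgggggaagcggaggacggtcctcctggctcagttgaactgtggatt
Tjp1 (chr7:65371195-65371494, minus strand): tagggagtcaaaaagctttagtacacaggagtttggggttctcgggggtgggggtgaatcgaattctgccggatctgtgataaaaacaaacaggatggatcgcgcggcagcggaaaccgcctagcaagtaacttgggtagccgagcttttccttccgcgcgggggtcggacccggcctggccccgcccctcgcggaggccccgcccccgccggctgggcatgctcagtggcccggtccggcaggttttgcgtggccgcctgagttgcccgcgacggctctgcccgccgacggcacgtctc
The E2-box was found on either strand in 4 of the 7 genes (Ocln, Cldn4, Cldn6 and F11r) and not in Ctnnb1, Ctnnd1 or Tjp1. Of all 27025 genes with a window, 22.6% held it. In Cldn4 it stands at positions -14 and 12 from the start, in Cldn6 at -93 and 41, and in F11r at -122. GGGCGG, the GC box, was in 6 of the 7 genes and in 38.2% of all. The TFAP2 letters GCCNNNGGC were in 5 and in 18.5%, and the TEAD letters GGAATG in 1, Cldn6, and in 16.6%. In the Ocln window shown, a GGGCGG overlaps a GCCNNNGGC. These matches describe the letters only.

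Cldn4, a claudin of early embryonic and other simple epithelia, was read at 234, 324 and 96.3 CPM in controls and at 369, 389 and 49.2 with 10% EtOH. With 6% EtOH it stood at 322, 7.45 and 17.1 CPM, so that 1 library matched the highest controls and the other two were the lowest of all 9. The log2 fold change was -0.91 ± 1.13 SE for 6% EtOH against Control (edgeR adjusted p = 0.902) and 0.30 ± 1.12 SE for 10% EtOH. Without 6% EtOH 1 the first of these was -4.17. It was -3.76 among short-header libraries alone (edgeR adjusted p = 0.101), -0.0033 among long-header libraries alone, and -2.57 with header form as a term (edgeR adjusted p = 0.628). With that term the value for 10% EtOH turned to -1.43.

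Cldn6, a claudin of embryonic epithelia and pluripotent cells, had lower levels than Cldn4 and was also lowest in 6% EtOH 2 and 6% EtOH 3. Unlike Cldn4, it was lower in 10% EtOH 1 than in Control 1. It was measured at 17.9, 33.3 and 2.64 CPM in controls, 34.0, 1.91 and 1.10 with 6% EtOH and 14.7, 41.2 and 2.74 with 10% EtOH. The lowest values rest on 10 counts each in 6% EtOH 2 and 6% EtOH 3. The sire groups overlapped, with log2 fold changes of -0.53 ± 1.34 SE and 0.12 ± 1.33 SE against Control. The first was -3.62 without 6% EtOH 1 (edgeR adjusted p = 0.297) and 0.28 without Control 2. In the fit that adds header form, the values were -1.86 for 6% and -1.51 for 10% EtOH.

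F11r, the junctional adhesion molecule JAM-A, had 79.0, 181 and 93.7 CPM in controls, 248, 65.9 and 43.2 with 6% EtOH and 268, 295 and 79.9 with 10% EtOH. The 4 long-header libraries were the 4 highest, and the sire groups overlapped. Against Control the log2 fold change was 0.017 ± 0.70 SE for 6% and 0.86 ± 0.71 SE for 10% EtOH.

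Ocln, occludin, a membrane protein of the tight junction strand, was set apart by 1 library. It had 17.5, 516 and 22.7 CPM in controls, 67.5, 62.6 and 25.1 with 6% EtOH and 62.8, 150.2 and 70.7 with 10% EtOH. Control 2 was the highest library and the other controls were the lowest ones. The log2 fold change was -1.84 ± 1.06 SE for 6% EtOH (edgeR adjusted p = 0.822) and -0.97 ± 1.03 SE for 10% EtOH. Without Control 2 both turned sign, to 1.36 and 2.25.

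Tjp1 encodes ZO-1, the plaque protein that ties claudins and occludin to actin. It was counted at 403, 127 and 249.5 CPM in controls, 107, 422 and 672 with 6% EtOH and 156, 118 and 175 with 10% EtOH. The highest values were in 6% EtOH 2 and 6% EtOH 3, the libraries with the lowest Cldn4. The log2 fold change between the doses, 10% against 6% EtOH, was -1.42 ± 0.63 SE with an unadjusted p of 0.0433 and an adjusted p of 0.806 by edgeR. It was -0.75 without 6% EtOH 3, -0.64 with header form as a term, and 0.34 among long-header libraries.

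No junction gene passed in a sire comparison. By edgeR's quasi-likelihood test with Benjamini-Hochberg adjustment, 0 of 9 passed for 6% EtOH against Control, where 0% of the 12488 tested genes did, and 0 of 9 had an unadjusted p under 0.05, where 6.24% of tested genes did. For 10% EtOH against Control the counts were 0 of 9 and 0 of 9, beside 0% and 2.14% of tested genes. For 10% against 6% EtOH they were 0 and 1, Tjp1, beside 0% and 5.33%. For the mean of both doses against Control they were 0 and 0, beside 0% and 4.08%. DESeq2 called 31, 10, 34 and 17 genes in these comparisons and none of the 8 junction genes to which it gave a p-value. It gave none to Ocln in the sire comparisons. Limma voom called 0 genes. For each sire comparison 0 of 9 genes had groups that did not overlap, while 8.06% of tested genes did for 6% EtOH, 8.06% for 10% EtOH, 9.66% between the doses and 1.79% for both doses together.

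The median log2 fold change of the 9 genes was -0.11 for 6% EtOH, with 3 above and 6 below 0, beside a median of -0.01 over all tested genes. For 10% EtOH it was 0.10, with 5 above and 4 below 0, beside -0.05. The same controls entered both comparisons. Between the doses it was 0.29, with 8 above 0 and Tjp1 below, beside -0.02. Those 8 did not pass the test. Header form was not balanced between the doses, since 6% EtOH 1, 10% EtOH 1 and 10% EtOH 2 had the long header. With header form as a term, all values between the doses but that of Ctnna1 were smaller in size. Cdh1 was then at -0.011, Ctnna1 0.084, Ctnnb1 0.069, Ctnnd1 0.12 and Ocln 0.23. Cldn4 was at 1.13, Cldn6 0.35, F11r 0.44 and Tjp1 -0.64. The scaling also bore on small values, since with library totals alone the median over all tested genes was -0.28 for 6% EtOH.

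**Figure D2:**
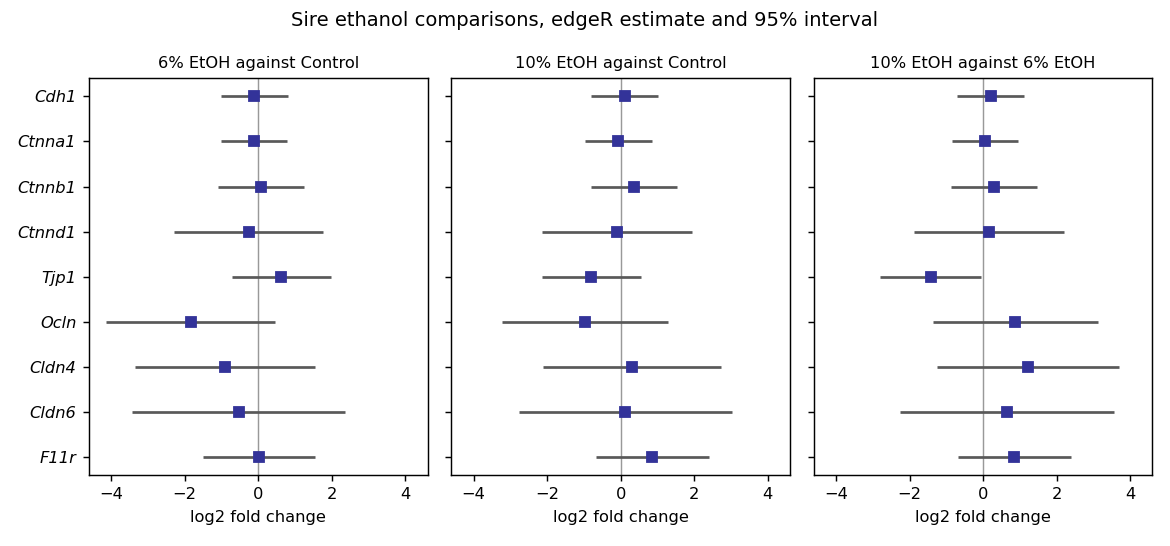
Log2 fold change of each junction gene in the 3 comparisons between pairs of sire groups, as squares, with lines for the 95% interval of edgeR's quasi-likelihood fit to all 9 libraries. All intervals but that of Tjp1 between the doses include 0, and those of Cdh1 and Ctnna1 are the narrowest.

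The levels of 4 tight junction genes went with the form of the file header. Cldn4 had 351 ± 33.3 CPM in the 4 long-header libraries (SD, n = 4) and 80.8 ± 92.4 in the 5 short-header ones (SD, n = 5), with no overlap. F11r had 248 ± 48.6 and 72.3 ± 19.0 CPM, also with no overlap. Cldn6 had 30.8 ± 11.3 and 5.25 ± 7.09 CPM, and here Control 1, at 17.9 CPM, lay above 10% EtOH 1. Tjp1 went the other way, with 127 ± 20.9 CPM under the long and 384 ± 191 under the short header, and no overlap.

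In a model with sire group and header form as terms, the log2 fold change of long- against short-header libraries was 3.13 ± 0.67 SE for Cldn4 (edgeR adjusted p = 0.113). It was 3.31 ± 0.88 SE for Cldn6 (edgeR adjusted p = 0.149) and 1.71 ± 0.37 SE for F11r (0.115). For Tjp1 it was -1.36 ± 0.46 SE (0.230 by edgeR). Ocln stood at 2.05 ± 0.79 SE (edgeR adjusted p = 0.272), or 0.64 without Control 2. None of these passed by edgeR. DESeq2 passed Cldn4 (adjusted p = 0.000114), Cldn6 (0.00111), F11r (0.00164) and Tjp1 (0.0457). Limma voom passed Cldn4 (adjusted p = 0.0294) and F11r (0.0317). Of all 12488 tested genes, DESeq2 passed 1027 between header forms, limma voom 304 and edgeR 13.

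The cadherin complex differed less. Cdh1 had 418 ± 25.0 CPM under the long and 283 ± 33.6 under the short header, with no overlap but a small difference (0.59 ± 0.30 SE, edgeR adjusted p = 0.386). Ctnnb1 had 232 ± 29.4 and 131 ± 45.3 CPM, also with no overlap (0.80 ± 0.38 SE, edgeR adjusted p = 0.360). Ctnna1, at -0.092 ± 0.35 SE, and Ctnnd1, at 0.28 ± 0.79 SE, lay near 0.

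Over the 9 genes, 0 passed the adjusted edgeR test between header forms, beside 13 of 12488 tested genes (0.104%). At an unadjusted p under 0.05 there were 5 of 9 (Tjp1, Ocln, Cldn4, Cldn6 and F11r), beside 14.8% of tested genes. The libraries did not overlap for 5 of 9 (Cdh1, Ctnnb1, Cldn4, F11r and Tjp1), beside 9.07%. The 13 became 30 without Control 1 and 0 or 1 without any other single library. Among the 9 genes, leaving out 6% EtOH 1 brought Cldn4 to 1.98, Cldn6 to 2.53 and Tjp1 to -0.84, and leaving out 10% EtOH 3 brought Ocln to 3.20. When all libraries were thinned to the smallest total, a setting chosen after seeing the data, Cldn4 stood at 3.07, Cldn6 at 3.18, F11r at 1.71 and Tjp1 at -1.41. The share of tested genes at 0 counts was 1.50% to 3.35% in long-header and 3.76% to 13.5% in short-header libraries. The mitochondrial ribosomal RNA mt-Rnr2 took 8.87% to 14.7% of counts in long-header libraries, and 4.44% to 6.01% in the short-header ones but for 10% EtOH 3 with 11.3%. The cumulus and granulosa list summed to 0.0724 to 0.868 CPM in long-header and 1.92 to 5.89 CPM in short-header libraries. Star alone made up the sum in Control 1 (5.89 CPM), Control 3 (2.79) and 6% EtOH 2 (1.92), and Cyp19a1 gave 1.83 CPM in 6% EtOH 3. No other gene of the list was above 0.594 CPM in any library. The part of all these measures in the differences was not tested.

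**Figure D3:**
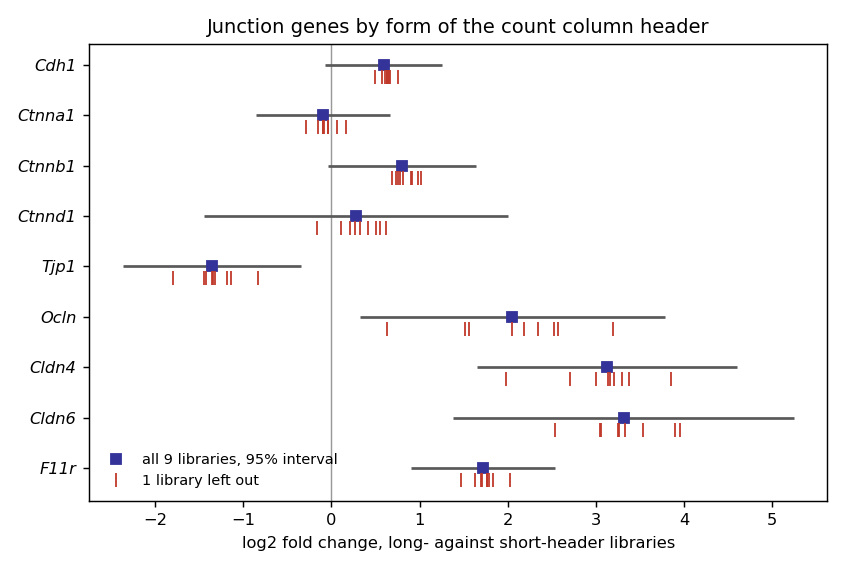
Log2 fold change of each junction gene between long- and short-header libraries (squares, with the 95% interval of edgeR's fit) and the same value with each library left out in turn (red ticks). Cldn4, Cldn6, F11r and Ocln lie above 0 and Tjp1 below 0 in each of these fits, and the Ocln tick at 0.64 is the fit without Control 2.

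Ratios within a library do not depend on its scaling. Per kilobase, Cldn4 was 10.2 to 14.2 (median 12.0) times Tjp1 in long-header libraries and 0.0760 to 2.50 (median 1.21) times in short-header ones. F11r was 4.19 to 7.35 (median 5.91) times Tjp1 in long-header and 0.188 to 1.34 (median 0.575) times in short-header libraries. These 2 ratios could not overlap between the header forms, since the levels of each gene in them did not, so they restate those levels and give only the size. Ocln, also a membrane protein, did overlap, at 0.745 to 7.54 (median 1.76) times Tjp1 in long-header and 0.0691 to 0.748 (median 0.168) times in short-header libraries. The proportion of Cdh1 to its partner Ctnnb1 was closer, at 1.90 to 2.38 (median 1.99) with the long and 1.82 to 4.07 (median 2.21) with the short header, and here the libraries overlapped.

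**Figure D4:**
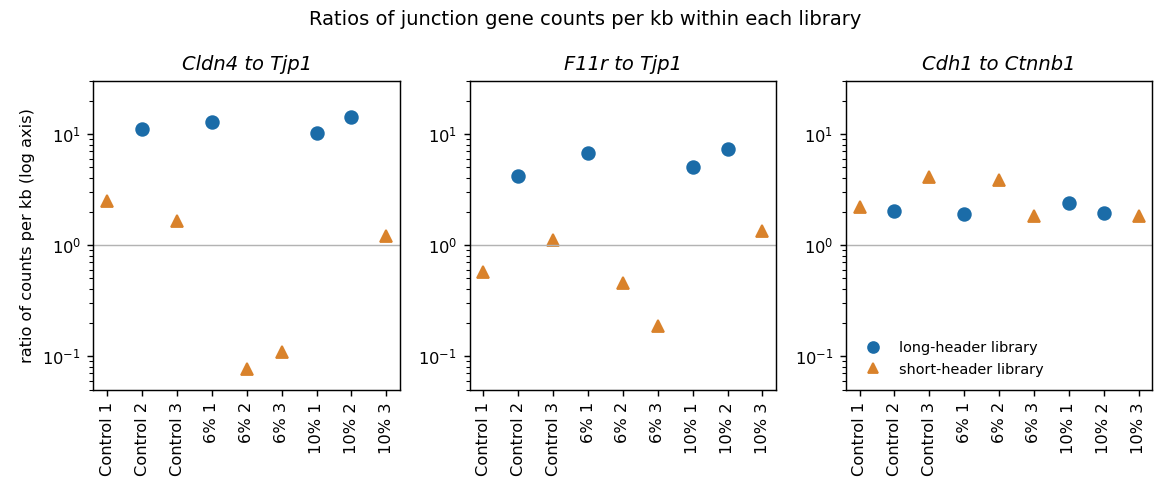
Ratio of counts per kb of Cldn4 to Tjp1, F11r to Tjp1 and Cdh1 to Ctnnb1 in each of the 9 libraries, on a log axis. Circles are long-header and triangles short-header libraries, and the line marks a ratio of 1. The first ratio is at least 10.2 in every long-header library and at most 2.50 in every short-header library.

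Likeness of profiles was measured as the root mean square difference of log2 CPM over the 9 libraries, each gene centred on its own mean, and is a description of libraries that share depth and header form. The measure is small for any genes that vary little, whether or not they move together. Among the 36 pairs of members it ran from 0.42 for Cdh1 and Ctnnb1 to 2.73 for Tjp1 and Cldn4, with a median of 1.31. Cdh1 and Ctnna1, at 0.45, did not follow each other: 6% EtOH 1 had the lowest Ctnna1 and one of the highest Cdh1 levels, and 6% EtOH 2 the highest Ctnna1 and one of the lowest Cdh1 levels. Over 6835 other genes of at least 10 CPM (6836 for Ctnnd1), the nearest to Cdh1 were Kti12 (0.17) and Hsp90ab1, a cytosolic chaperone (0.19), and the nearest to Ctnna1 were Map1lc3b and Cyc1. Hic2 and Armc10 were nearest to Ctnnb1, and Hikeshi and Scrib, a polarity protein, to Ctnnd1. Tjp1 was most like Slmap (0.30) and Ccdc58. F11r was most like Ppp3r1 (0.27) and the elongation factor Eef2. The variable genes had no close match: Cldn4 was nearest to Ap1m1 (0.53) and Reep4, Cldn6 to Dolpp1 (0.60) and the membrane protease St14, and Ocln to Usp3 (0.61) and Nhlrc3.

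Junction genes were also read from 9 lists with 171 distinct genes, of which 127 were tested. The 9 members are part of these lists and are counted again in them. In the claudin, occludin and junctional adhesion molecule list 17 of 30 genes were tested, and 7 of the other 13 had 0 counts in all libraries. Cldn7 was the most abundant claudin per length, with a mean of 364 CPM per kb, above Cldn4 with 111 and F11r with 56.4. Cxadr, an adhesion molecule of the same superfamily as F11r, had a mean of 35.9 CPM per kb, and Cldn12 had 6.34.

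By edgeR 0 of the 127 genes passed after adjustment in any comparison. At an unadjusted p under 0.05 there were 9 for 6% EtOH against Control, 2 higher and 7 lower, which is 7.09% beside 6.24% of all tested genes. There was 1 for 10% EtOH, lower (0.787% beside 2.14%), and there were 7 between the doses, 5 higher and 2 lower (5.51% beside 5.33%). For the mean of both doses there were 8, all lower (6.30% beside 4.08%). For 6% EtOH the median of the 127 genes was -0.33, with 45 above and 82 below 0, beside -0.01 over all tested genes. For 10% EtOH 51 were above and 76 below 0, with a median of -0.084 beside -0.055. Between the doses 76 were above and 51 below (0.16 beside -0.016), and for the mean of both doses 42 above and 85 below (-0.25 beside -0.026). Of all tested genes 49.5%, 47.1%, 49.5% and 48.6% were above 0, in the same order from 6% EtOH on. The same controls entered each comparison with Control. In the comparison of 6% EtOH against Control, the nectin and actin linker list had a median of -0.75, with 14 of 20 below 0. Its member of smallest p there was Vasp, which promotes actin filament growth, at -2.91 ± 0.73 SE, adjusted p = 0.799 by edgeR. In the same comparison Spint1, an inhibitor of membrane serine proteases, stood at -1.80 ± 0.54 SE, adjusted p = 0.799 (edgeR). The non-muscle myosin Myh9 stood there at -1.67 ± 0.57 SE, adjusted p = 0.799 (edgeR). For 10% EtOH the 1 gene was Arhgef2 (-2.94 ± 0.96 SE, adjusted p = 0.9999, edgeR).

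Between header forms 27 of the 127 genes had an unadjusted p under 0.05, 19 higher and 8 lower in long-header libraries, which is 21.3% beside 14.8% of all tested genes. Among the 27 are 5 members already counted above: Tjp1, Ocln, Cldn4, Cldn6 and F11r. The median of the 127 genes was 0.66 beside 0.10 over all tested genes, which was 0.21 on library totals alone. The claudin, occludin and junctional adhesion molecule list had 13 of 17 above 0 and a median of 1.71, and 4 of its 6 higher genes were members described above. Cldn12 was also among them, at 1.72 ± 0.64 SE, adjusted p = 0.265 by edgeR. Cldn9, with a mean of 5.54 CPM, was lower with an unadjusted p under 0.05 (-2.70 ± 1.19 SE, adjusted p = 0.321, edgeR). The abundant Cldn7 overlapped, with 613 to 1070 CPM under the long and 100 to 1845 under the short header (1.46 ± 0.82 SE, adjusted p = 0.422, edgeR). The gap junction list had 4 of 5 above 0. Its connexin gene Gjb5 had 18.9 ± 26.7 CPM with the long and 1.06 ± 1.46 with the short header (5.37 ± 1.09 SE, adjusted p = 0.101, edgeR). This is a low gene, and its long-header libraries ran from 4.65 to 58.8 CPM. Gja1, the most abundant of the list with a mean of 779 CPM, lay near 0 (-0.083 ± 0.43 SE, adjusted p = 0.948, edgeR).

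The cortex list had 15 of 20 above 0 and a median of 0.58. Actb, the cytoplasmic beta-actin, had 1153 ± 234 CPM with the long and 501 ± 378 with the short header (1.50 ± 0.37 SE, adjusted p = 0.134, edgeR). The epithelial adhesion molecule Epcam had 380.4 ± 100.4 CPM with the long and 211 ± 121 with the short header (1.06 ± 0.42 SE, adjusted p = 0.281, edgeR), and St14 had 124 ± 16.4 CPM with the long and 31.5 ± 32.3 with the short header (2.35 ± 0.57 SE, adjusted p = 0.134, edgeR). Apc, a scaffold of the complex that degrades beta-catenin, was on the other side with 19.7 ± 17.3 CPM with the long and 68.7 ± 14.5 with the short header (-2.03 ± 0.61 SE, adjusted p = 0.187, edgeR). The 14 tested genes of the plaque list had a median of 0.31, and Tjp1 was its only member with an unadjusted p under 0.05. The cadherin and catenin list had 9 of 12 above 0 and none with an unadjusted p under 0.05.

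**Figure D5:**
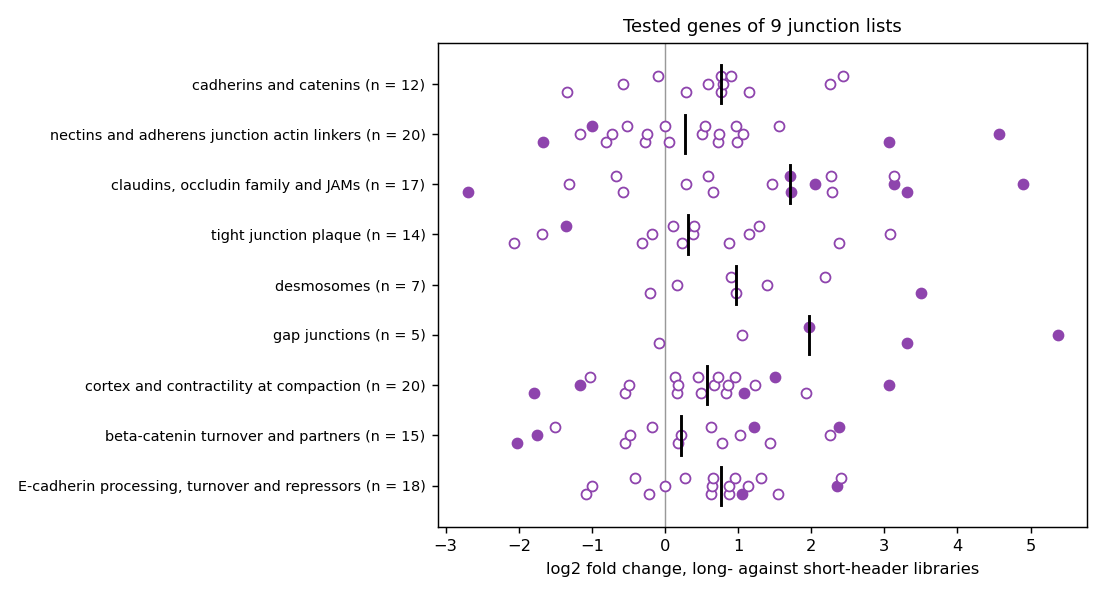
Log2 fold change between long- and short-header libraries for every tested gene of the 9 junction lists, 1 point a gene, with the number tested beside each list name. Filled points have an unadjusted p under 0.05 by edgeR and bars are list medians, which run from 0.21 to 1.97.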

How the data were processed

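Raw counts per gene were deposited in 1 file for each library. Per the submitters' processing notes, the authors counted with featureCounts on GRCm39, and DESeq2 is named as well. The header of 4 files names RNA STAR. For the other 5 the aligner, and for all of them the versions, annotation and strand setting, are not given in the sources used. Library totals, 6263465 to 27619281 counts, limit the precision of low genes.

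Genes were filtered with filterByExpr by group, scaled with TMM and tested with edgeR 4.0.16 (R 4.3.3) in a quasi-likelihood fit of 3 groups to all 9 libraries. Header form was a further term where it was compared. Benjamini-Hochberg adjustment ran over the 12488 tested genes with a threshold of 0.05, and standard errors came from the fold change and its F statistic. Log2 CPM had a prior count of 2. Exon lengths came from GENCODE M21, of another build, so gene coordinates on the build of the counts are not given. The coordinates of the promoter windows are on GRCm38.p6 and do not apply to GRCm39. The fit was also run on simulated counts with changes of set size, and no result above draws on that run.

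Alternatives were RLE scaling, library totals alone, a looser filter (at least 1 count in 3 libraries), a stricter one (at least 5 CPM in 3 libraries), DESeq2 1.42.0, limma 3.58.1 voom with quality weights, a robust fit, only the groups compared, header form as a term or within each form, and each library left out in turn. Thinning to the smallest library was added after seeing the data. Where such a fit left a group with 1 library, that library was taken to vary as the rest do. The members, the 9 junction lists and the tests were chosen with earlier results of these data known. Beside the members, the text names from each list the 2 genes of highest mean CPM and, in each comparison, the 1 of smallest p among genes of at least 10 CPM in a group, and for each member the 2 genes of most similar profile. Not all of them are described. Replicate numbers follow accession order and pair nothing.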

Additional observations from a re-analysis of the deposited data

Results flagged for a closer look

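For 7 of the 9 junction genes, a sire comparison gave a log2 difference of one sign between long-header libraries and of the other sign between short-header libraries, with every library on its side. Each value is a difference of mean log2 CPM within a header form, long-header first, and rests on 1 or 2 libraries a group. The difference between the header forms was not tested. Of all 12488 tested genes, 40.7% did the same in at least 1 of these comparisons, and for each comparison 16.7% to 19.8% did. Cdh1 gave 0.043 against -0.21 for 6% EtOH against Control, a difference of 0.25, 0.12 against -0.41 for 10% EtOH against Control, a difference of 0.53, and 0.079 against -0.20 for 10% EtOH against 6% EtOH, a difference of 0.28. Ctnnd1 gave -0.54 against 0.74 for 10% EtOH against 6% EtOH, a difference of -1.28. Tjp1 gave -0.24 against 0.75 for 6% EtOH against Control, a difference of -0.99, and 0.34 against -1.61 for 10% EtOH against 6% EtOH, a difference of 1.94. Ocln gave -2.93 against 0.99 for 6% EtOH against Control, a difference of -3.92, and -2.41 against 1.82 for 10% EtOH against Control, a difference of -4.23. Cldn4 gave 0.23 against -1.61 for 10% EtOH against Control, a difference of 1.83. Cldn6 gave 0.033 against -2.16 for 6% EtOH against Control, a difference of 2.19. F11r gave 0.46 against -0.69 for 6% EtOH against Control, a difference of 1.15. In each of these comparisons at least 1 group had a single library of a header form, so a value may describe that library.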

How the results depend on the processing

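No paired analysis was possible because the labels give each library its own identifier and no number shared between groups, and the replicate numbers used here only follow accession order. At this depth and spread, the standard error of a member's log2 fold change between 2 sire groups ran from 0.42 to 1.34. The 95% intervals reached further than 1 standard error. For 6% EtOH against Control they ran from -1.01 to 0.80 for Cdh1 and from -3.43 to 2.37 for Cldn6. Differences within these intervals could not be told from the spread between libraries. With edgeR 0 of 12488 genes passed in each sire comparison. DESeq2 called 31 genes for 6% EtOH against Control, 10 for 10% EtOH against Control, 34 for 10% against 6% EtOH, 17 for the mean of both doses, and 1027 between header forms. Within the long-header libraries edgeR called 3, 9, 4 and 13 genes in the same order of sire comparisons, and within the short-header libraries 48, 2, 1 and 5. No junction gene was among these calls in a sire comparison, but DESeq2 gave Ocln no p-value there, so it could not be called. Between header forms the 13 genes called by edgeR became 304 by limma voom, 45 under a looser filter and 21 under a stricter one, and ranged from 0 to 30 with 1 library left out. The cause of these changes was not tested. The differences of Cldn4, Cldn6, F11r, Ocln and Tjp1 between header forms kept their direction under every alternative run. All 90 recomputed mean levels of the members lay within 1 SD of the reported ones.

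With header form as a term, the log2 fold changes that turned sign were, for 6% EtOH against Control F11r -0.30, for 10% EtOH against Control Cdh1 -0.14, Cldn4 -1.43 and Cldn6 -1.51, for 10% against 6% EtOH Cdh1 -0.011, for both doses against Control Tjp1 0.16 and F11r -0.079. On library totals alone those were, for 6% EtOH against Control Ctnnb1 -0.19 and F11r -0.18, for 10% EtOH against Control Cdh1 -0.039 and Cldn6 -0.088, for long against short header Ctnna1 0.024. By limma voom with quality weights those were, for 6% EtOH against Control Ctnnb1 -0.16 and F11r -0.63, for 10% EtOH against Control Cldn6 -0.0064, for both doses against Control Tjp1 0.13. Within the long-header libraries those were, for 6% EtOH against Control Cdh1 0.048, Ctnnd1 0.59, Tjp1 -0.23 and Cldn6 0.037, for 10% EtOH against Control Ctnnd1 0.062, Tjp1 0.11 and Cldn6 -0.25, for 10% against 6% EtOH Ctnnb1 -0.090, Ctnnd1 -0.53, Tjp1 0.34 and Cldn6 -0.29, for both doses against Control Cdh1 0.084, Ctnnd1 0.33 and Cldn4 0.11. Within the short-header libraries those were, for 6% EtOH against Control Ctnna1 0.16, Ocln 1.11 and F11r -0.68, for 10% EtOH against Control Cdh1 -0.41, Ctnna1 0.054, Ocln 1.81, Cldn4 -1.75, Cldn6 -1.92 and F11r -0.12, for 10% against 6% EtOH Cdh1 -0.19 and Ctnna1 -0.10, for both doses against Control Ctnna1 0.11, Ocln 1.46 and F11r -0.40. Under the looser filter that was, for long against short header Ctnna1 0.00036. Under the stricter filter that was, for 6% EtOH against Control F11r -0.0066. In the fit to only the groups compared that was, for 6% EtOH against Control F11r -0.0028.

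Leaving out each library in turn gave these ranges of log2 fold change where a sign turned. For 6% EtOH against Control, Cdh1 ran from -0.35 to 0.015, Ctnna1 ran from -0.41 to 0.039, Ctnnb1 ran from -0.34 to 0.41, Ctnnd1 ran from -0.77 to 0.24, Tjp1 ran from -0.036 to 1.07, Ocln ran from -2.41 to 1.36, Cldn6 ran from -3.62 to 0.28 and F11r ran from -1.14 to 0.47. For 10% EtOH against Control, Cdh1 ran from -0.081 to 0.35, Ctnna1 ran from -0.20 to 0.052, Ctnnd1 ran from -0.41 to 0.41, Ocln ran from -1.52 to 2.25, Cldn4 ran from -0.065 to 0.80 and Cldn6 ran from -1.04 to 0.94. For 10% against 6% EtOH, Ctnna1 ran from -0.11 to 0.36, Ctnnb1 ran from -0.037 to 0.70, Ctnnd1 ran from -0.15 to 0.66 and Cldn6 ran from -0.51 to 3.74. For the mean of both doses against Control, Cdh1 ran from -0.12 to 0.12, Ctnna1 ran from -0.24 to 0.022, Ctnnb1 ran from -0.084 to 0.55, Ctnnd1 ran from -0.50 to 0.33, Tjp1 ran from -0.42 to 0.38, Ocln ran from -1.96 to 1.81, Cldn4 ran from -1.94 to 0.11, Cldn6 ran from -1.75 to 0.61 and F11r ran from -0.14 to 0.90. Between header forms, Ctnna1 ran from -0.29 to 0.17 and Ctnnd1 ran from -0.16 to 0.62.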
